A study of Mus musculus with 4 samples.

Results

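The genes described here encode the enzymes and transporters of glycolysis, the pentose phosphate pathway and the step that passes pyruvate on to lactate or to the mitochondrion. Members were the probe sets whose only annotated gene symbol was on a list of 40 genes, and 35 of these genes had such a probe set, out of 19937 genes with a single-symbol probe set on the array. The cells were pro-B cells, early B-lineage precursors in which the heavy-chain locus undergoes V(D)J recombination. They were sorted from bone marrow of wild-type C57BL/6 mice by B220 and c-Kit (B220+ c-Kit+), and their RNA was hybridized to 4 Affymetrix Mouse Gene 1.0 ST arrays as replicates 1 to 4. All samples share genotype and strain and form 1 group, so the comparisons below are between replicate arrays, without a test between conditions. Sorting was by flow cytometry or magnetic beads, and the labels state neither which was used for each sample nor age, purity or whether each replicate is a mouse of its own. Gpi1, Pfkfb1, Eno1 and G6pdx had no probe set of their own by this rule and were not analysed here. Gapdh was left out as well, because its 11 probe sets each carry several symbols.

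Glycolysis splits glucose into pyruvate, giving ATP and NADH on the way. Hexokinase, phosphofructokinase and pyruvate kinase catalyse its irreversible steps, and each of these is encoded by several genes with different tissue distributions. The pentose phosphate pathway branches off at glucose 6-phosphate and supplies NADPH and ribose phosphate, both of which dividing lymphocyte precursors need. In hypoxia, HIF-1 is known to raise the transcription of glucose transporters, several glycolytic enzymes and Pdk1, and Myc shares part of these targets.

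Deposited log2 intensities had a median of 7.31 to 7.35 on the 4 arrays, and any pair of arrays correlated across all probe sets with a Pearson's r of 0.986 to 0.989. Xist was at a log2 value of 5.48 on replicate 3, against 13.04 to 13.17 elsewhere. Of 12 early B-cell markers with a probe set, 11 were above background, and so were all 9 erythroid and all 12 granulocyte and monocyte markers. Erythroid markers were lower on replicate 1, their median shift being -1.61, where a shift is the log2 value on 1 array minus the mean of the other arrays. Early B-cell markers were higher there, with a median shift of 0.92. Since fewer cells of a type and less RNA per cell cannot be told apart in bulk RNA, each value below belongs to the sorted population. Levels of different probe sets were not set against each other, because probes differ in their response.

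Most of the measured genes were above background, while the steps of glucose phosphate isomerase, glyceraldehyde phosphate dehydrogenase and glucose 6-phosphate dehydrogenase had no member with a reading. The background line of an array was taken from 1248 probe sets of sensory receptors (olfactory, vomeronasal and taste), as their 95th percentile, and lay at 6.53 to 6.62. A gene counted as above background if it passed the line on each of the 4 arrays. This held for 33 of the 35 genes, against 63.5% of genes on the array and 60.0% of all probe sets. The exceptions were Eno2, the neuronal enolase, and Ldhc, the lactate dehydrogenase of spermatogenic cells. Eno2 had log2 values of 6.31, 6.53, 6.26 and 6.54 on replicates 1 to 4, each just under the line of its array, and passed the line with its 90th percentile. Ldhc lay further below, at 5.89, 5.83, 5.95 and 5.68. Among the members that passed, Pgam2, the muscle phosphoglycerate mutase, was closest to the line at 6.93, 6.86, 6.83 and 7.11, and Aldoc, the aldolase of brain, followed at 7.29, 7.21, 7.28 and 7.29. With the line at the 99th percentile both failed, leaving 31 genes. Of 6 skeletal muscle markers 3 were above background and of 6 male germ cell markers 2, such that a probe set of a gene foreign to these cells could also pass.

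Replicate arrays differed little for most members. The SD of the log2 value over the 4 arrays had a median of 0.10 over the 33 genes, beside 0.11 over 13747 single-symbol probe sets above background. It was under 0.06 for 7 genes and over 0.2 for 6. The difference between the highest and the lowest array reached 1 on the log2 scale, a 2-fold change, for 1 of the 33 genes (Pklr), against a background of 1.64%. Without replicate 1 the count was 0. The next largest difference was 0.67, for Pfkfb4. By Dixon's ratio, the gap between an extreme array and its neighbour divided by the range, 3 of the 33 genes had 1 array apart (background 5.35%). Of these, 2 had replicate 1 apart (2.42%), 1 had replicate 2 (1.12%), and 0 had replicate 3 (0.873%) or replicate 4 (0.946%).

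The lowest value fell on replicate 1 for 14 genes, on replicate 2 for 7, on replicate 3 for 8 and on replicate 4 for 4, with backgrounds of 28.9%, 23.4%, 20.2% and 27.6%. The highest value fell on them for 6, 11, 8 and 8 genes, with backgrounds of 33.2%, 24.3%, 23.2% and 19.3%.

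**Figure D1:**
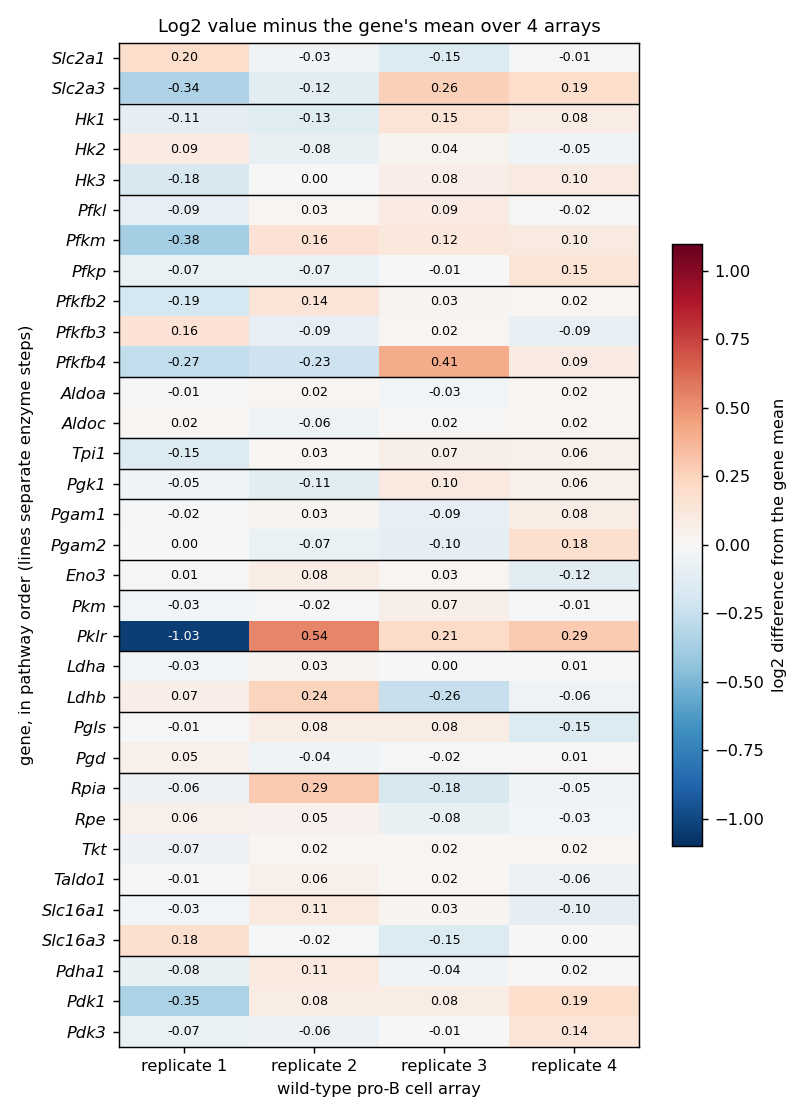
Log2 value on each of the 4 wild-type pro-B cell arrays (columns) minus the mean of that gene over the arrays, for the 33 glycolysis and pentose phosphate genes above background (rows, in pathway order with lines between enzyme steps). Colour and printed numbers give the same difference; Pklr on replicate 1 is the darkest cell.

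**Figure D2:**
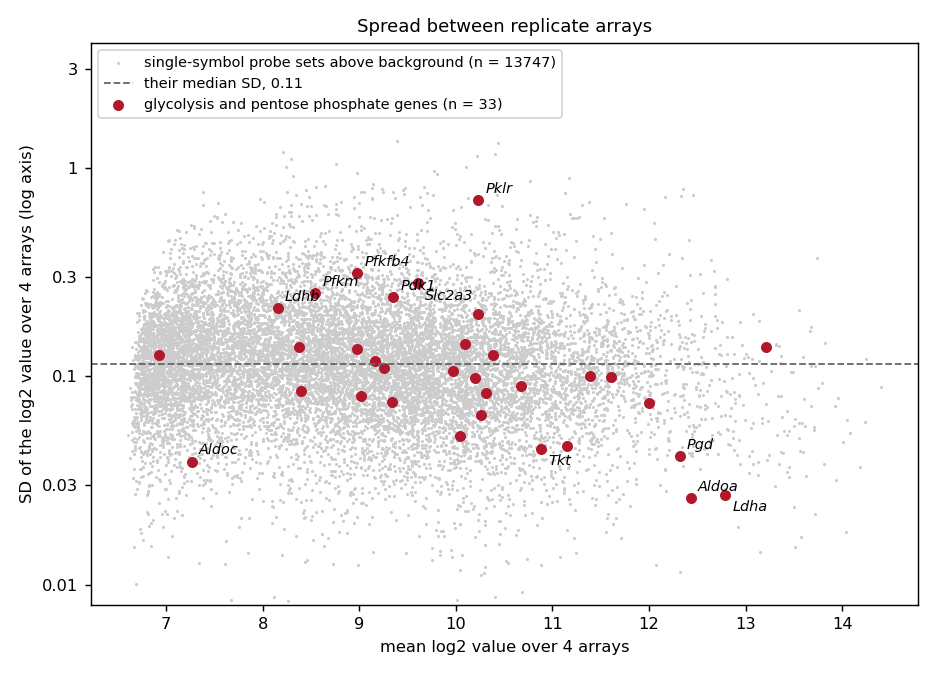
SD over the 4 arrays (vertical log axis) against the mean log2 value (horizontal axis) for 13747 single-symbol probe sets above background (grey) and the 33 members (red); the dashed line is the median SD of the grey points. Pklr lies at 0.70, while Aldoa and Ldha lie at 0.03.

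Pklr encodes the pyruvate kinase of liver and red cells, and it had the widest spread of all members, with its lowest value on replicate 1. Its log2 values were 9.20, 10.77, 10.44 and 10.52 on replicates 1 to 4. Replicate 1 was thus 2.60-fold below the mean of the others (10.58 ± 0.17, SD, n = 3), a shift of -1.38. Its SD of 0.70 over all arrays exceeded that of 99.6% of single-symbol probe sets above background. Among replicates 2 to 4 the values spanned 0.33, and by Dixon's ratio (0.789) replicate 1 did not count as apart. Pkm, the pyruvate kinase gene used by most other cells, had values of 11.12, 11.13, 11.22 and 11.14 by its brighter probe set, with an SD of 0.05. A second Pkm probe set, the only one of the pair that lists a RefSeq transcript of the gene, read 10.59, 10.49, 10.80 and 10.58. Its SD was 0.13, above the median of 0.11 over single-symbol probe sets above background. On neither Pkm probe set was replicate 1 apart from the rest.

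The 9 erythroid markers were lower on replicate 1 without exception, and the sum of their log2 values was 78.2 there against 90.9 to 92.7 on the other arrays. None of them was below the background line on any array. Slc4a1, the anion exchanger of red cells, had log2 values of 8.52, 10.97, 10.72 and 10.69, and Klf1, an erythroid transcription factor, had 7.66, 8.88, 9.14 and 8.88. In Slc4a1, as in Pklr, replicate 2 was highest and replicate 1 lowest. The part of erythroid cells in the Pklr values was not tested. Bpgm, which makes the red-cell metabolite bisphosphoglycerate and was looked up after its values were seen, had log2 values of 7.12, 7.33, 7.31 and 7.40, lowest on replicate 1 as well.

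Pklr has 2 annotated starts in RefSeq, and Pfkm has 4. The 250 bases before each start were searched on both strands for the GATA motif AGATAA, the binding letters of erythroid GATA factors, because the gene moved with erythroid markers. The Pfkm windows hold 1, 2, 1 and 0 matches, in the order of the starts. The window of the upstream Pklr start holds 1 match, 35 bases before the start, and the other window 0. It is shown here with that of the second Pfkm start, whose matches lie 169 and 124 bases before it, on the plus strand of GRCm38.p6 in both cases, with the matches in capitals.
Pklr, chr3:89135892-89136141: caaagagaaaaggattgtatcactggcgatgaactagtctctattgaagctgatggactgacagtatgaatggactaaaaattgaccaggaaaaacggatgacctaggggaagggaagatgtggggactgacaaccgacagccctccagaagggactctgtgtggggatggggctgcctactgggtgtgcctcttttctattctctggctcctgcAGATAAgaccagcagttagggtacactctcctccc
Pfkm, chr15:98108221-98108470: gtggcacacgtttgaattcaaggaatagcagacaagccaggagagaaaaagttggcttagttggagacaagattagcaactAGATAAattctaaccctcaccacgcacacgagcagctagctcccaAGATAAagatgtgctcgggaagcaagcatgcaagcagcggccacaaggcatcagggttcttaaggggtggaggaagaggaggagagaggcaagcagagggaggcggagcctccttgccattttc

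Of the 34 measured genes with a promoter entry, 3 held AGATAA before any start (8.82%), compared with 11.4% of all 27025 genes in the table. By window the shares were 10% and 9.99%. The 3 genes were Pklr, Pfkm and Pfkfb2, and they had shifts on replicate 1 of -1.38, -0.50 and -0.25. The 29 members above background whose windows lack the letters had shifts from -0.47 to 0.26 on that array. The motif was chosen after the Pklr shift on replicate 1 was seen, so these shifts cannot serve as a test of it. A match of these letters is a description and was not tested as a binding site.

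Some other members were also lower on replicate 1. Of the 33 genes, 7 (21.2%), Pklr included, lay at least 0.2 below the mean of the other arrays on the log2 scale. The background was 14.0%, and the difference from it was not tested. The count of 7 and the other counts take Hk1 and Pkm by their brighter probe sets. With the probe sets that list a RefSeq transcript of these genes, 8 genes were lower by as much on replicate 1, Hk1 being added. On replicates 2, 3 and 4 the counts were 1, 2 and 1, with backgrounds of 10.1%, 6.34% and 11.2%. Genes higher by as much numbered 4, 4 and 5 there, with backgrounds of 9.31%, 9.65% and 8.14%. Pfkm, the muscle-type phosphofructokinase that red cells also use, had log2 values of 8.17, 8.71, 8.66 and 8.64. Replicate 1 was 1.41-fold below the others, whose values spanned 0.07. The remaining phosphofructokinase genes were also below the mean of the other arrays there, by less than 0.2 on the log2 scale, with 9.25, 9.36, 9.42 and 9.31 for Pfkl, the liver type, and 9.90, 9.90, 9.96 and 10.12 for Pfkp, the platelet type. Pdk1, the kinase that inactivates pyruvate dehydrogenase, read 9.001, 9.43, 9.43 and 9.54, a shift of -0.47 on replicate 1. Values of Pdk3, a further kinase of the same family, were 10.13, 10.14, 10.19 and 10.34. Its highest array was replicate 4, and the spread was 0.21. Pfkfb2, one of the bifunctional enzymes that set the level of the main activator of phosphofructokinase, had 8.19, 8.51, 8.41 and 8.40. The triose phosphate isomerase gene Tpi1 had values of 11.24, 11.42, 11.46 and 11.45, also lowest on replicate 1.

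Hexokinase genes differed among themselves in their array pattern. Hk1, the form found in most cells including red cells, has a pair of probe sets. The brighter, at 13.10, 13.08, 13.36 and 13.29, lists a single mRNA record that 15 probe sets share with Rpl17, a ribosomal protein gene, and its signal cannot be assigned to Hk1, although the counts given here use it. The other probe set lists RefSeq transcripts of Hk1 and read 10.21, 10.54, 10.47 and 10.48, with a shift of -0.28 on replicate 1. Hk3, the hexokinase of myeloid cells, had 10.21, 10.39, 10.46 and 10.49. Hk2, the inducible form, went the other way with 9.12, 8.94, 9.06 and 8.97, its highest value on replicate 1, but within a spread of 0.18.

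Slc2a3 and Pfkfb4 shared a pattern in which replicates 1 and 2 were low and replicates 3 and 4 high. Slc2a3, the high-affinity glucose transporter GLUT3 of neurons and white cells, had log2 values of 9.27, 9.49, 9.87 and 9.80, with 1.52-fold between the extremes. Pfkfb4, a hypoxia-inducible bifunctional enzyme, had 8.71, 8.75, 9.38 and 9.07, with 1.60-fold between them. This division into low and high arrays was drawn after the values were seen, so their separation follows from the choice. The share of all probe sets with the same division is not given here. For the 12 markers of granulocytes and monocytes, the median shift was 0.00, -0.47, 0.19 and 0.28 on replicates 1 to 4, with summed log2 values of 141.1, 136.9, 143.9 and 143.3. They were thus lowest on replicate 2, whereas Slc2a3, Hk3 and Pfkfb4 were lowest on replicate 1. Their part in these values was not tested.

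**Figure D3:**
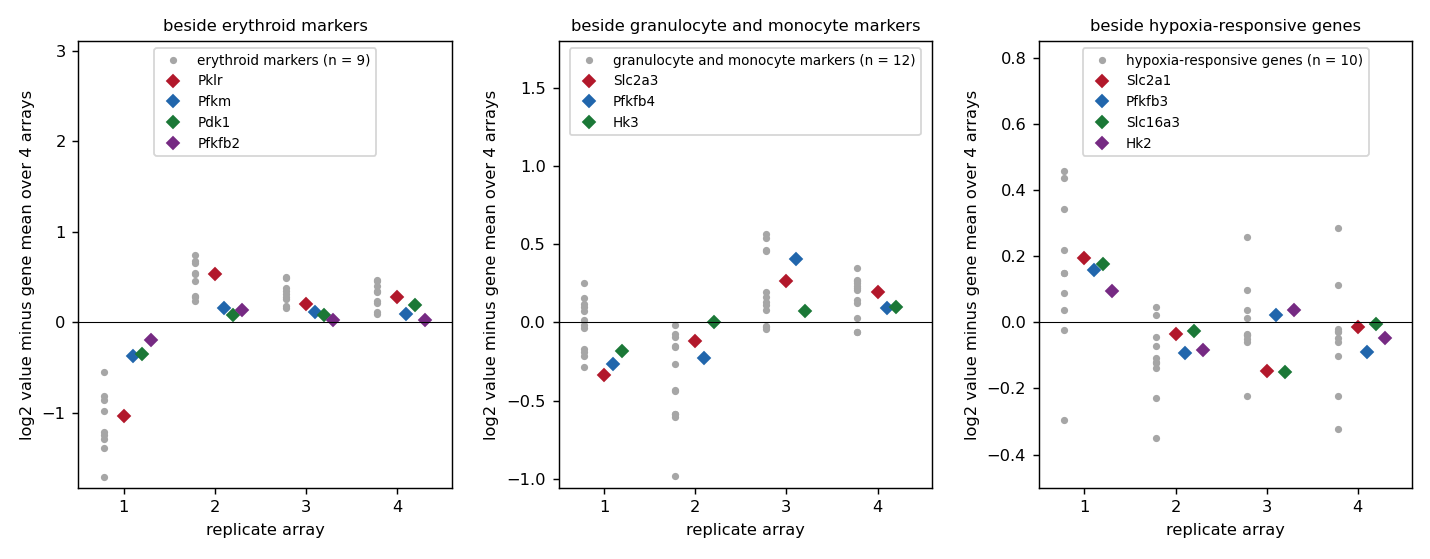
Log2 value minus the mean of the gene over the 4 arrays (vertical axes, scaled separately) on replicates 1 to 4 (horizontal axes) for selected members (coloured diamonds) beside the genes of a list above background (grey dots): 9 erythroid markers, 12 granulocyte and monocyte markers and 10 hypoxia-responsive genes. On replicate 1 Pklr lies within the range of the erythroid markers.

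A smaller set of members was higher on replicate 1. Of the 33 genes, 3 (9.09%) lay at least 0.2 above the mean of the other arrays there, below the background of 15.8%. Slc2a1, the basal glucose transporter GLUT1, had log2 values of 10.29, 10.06, 9.95 and 10.08, a shift of 0.26. Slc16a3, the lactate exporter MCT4, had 9.16, 8.96, 8.83 and 8.98, a shift of 0.24. In both genes the order of the arrays was the same, with replicate 3 lowest. Pfkfb3, the bifunctional enzyme with the strongest kinase activity, had 9.32, 9.07, 9.19 and 9.08, a shift of 0.21. No 2 of these arrays differed by more than 1.27-fold in any of the 3 genes.

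The 10 hypoxia-responsive genes outside the pathway that were above background had a median shift of 0.20 on replicate 1. By at least 0.2, 5 were higher and 1 lower, with backgrounds of 15.8% and 14.0%. By any amount, 8 were higher and 2 lower. Those named next are the ones with the widest range over the arrays. Vegfa, the vascular growth factor, had log2 values of 9.40, 8.80, 8.72 and 8.84 and stood highest on replicate 1. Ddit4, a stress-induced inhibitor of mTORC1, had 8.22, 7.56, 7.80 and 7.56, and Ankrd37, another HIF-1 target, had 7.76, 7.296, 7.52 and 7.09. Pdk1 did not follow these genes, since it was lowest on that array. Nor did Pfkfb4 or the glucose transporter gene Slc2a3, with shifts of -0.36 and -0.45 there. Among all 33 members, 7 were lower and 3 higher on replicate 1 by at least 0.2. Neither oxygen supply nor handling of the sorts is given for each array, and their part in these values was not tested.

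The windows before the starts of these genes were searched for ACGTG, the core letters of the hypoxia response element, on both strands. CACGTG, the E-box bound by Myc, contains the same 5 letters, such that the searches overlap. Of the 34 genes with a promoter entry, 14 held ACGTG before at least 1 start (41.2%), against 18.5% of all genes in the table. For CACGTG the count was 5 (14.7% against 6.86%). Members had 50 windows, and the 27025 genes of the table had 32851, so counting over starts favours members. By window the shares were 36% against 16.6% for ACGTG and 10% against 6.02% for CACGTG. Base composition of the windows was not matched, and enrichment was not tested. The windows of the 3 genes higher on replicate 1 and of Hk2 are shown with the matches in capitals, on the plus strand for Slc2a1 and Slc16a3 and on the minus strand for Hk2 and the first Pfkfb3 start, all in GRCm38.p6.
Slc2a1, chr4:119108495-119108744: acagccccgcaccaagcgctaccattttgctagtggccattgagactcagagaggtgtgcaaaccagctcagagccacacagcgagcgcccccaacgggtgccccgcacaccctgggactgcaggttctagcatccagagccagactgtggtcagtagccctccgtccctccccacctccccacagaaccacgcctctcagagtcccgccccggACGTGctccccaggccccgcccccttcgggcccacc
Hk2, chr6:82774455-82774704: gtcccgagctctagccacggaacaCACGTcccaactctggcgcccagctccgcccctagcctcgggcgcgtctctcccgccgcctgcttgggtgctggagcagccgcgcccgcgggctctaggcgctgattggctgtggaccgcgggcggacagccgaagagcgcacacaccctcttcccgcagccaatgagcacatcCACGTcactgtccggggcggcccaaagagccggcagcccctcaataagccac
Pfkfb3, chr2:11553930-11554179: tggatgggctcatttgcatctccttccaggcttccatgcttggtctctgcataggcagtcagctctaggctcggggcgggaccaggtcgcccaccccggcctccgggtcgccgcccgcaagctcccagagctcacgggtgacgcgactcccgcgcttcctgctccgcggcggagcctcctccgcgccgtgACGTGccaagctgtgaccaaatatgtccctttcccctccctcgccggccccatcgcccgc
Slc16a3, chr11:120948817-120949066: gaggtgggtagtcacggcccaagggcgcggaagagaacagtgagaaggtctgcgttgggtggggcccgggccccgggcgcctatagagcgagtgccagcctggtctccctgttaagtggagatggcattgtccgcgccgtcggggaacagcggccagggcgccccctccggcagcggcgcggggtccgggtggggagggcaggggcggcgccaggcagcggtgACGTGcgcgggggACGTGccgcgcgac

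Matches lay 36 bases before the start in Slc2a1, 226 and 52 in Hk2, 60 in the Pfkfb3 window shown, and 27 and 14 in Slc16a3. Distances are counted from the first letter of the match. The window of the second Pfkfb3 start, not shown, holds 2 more matches, at 53 and 52 bases, which overlap in a CACGTG site. On replicate 1 the 14 genes with ACGTG had shifts from -0.50 to 0.26, with a median of -0.04. The 18 genes above background without it had shifts from -1.38 to 0.10, with a median of -0.09, Hk1 being among them by its brighter probe set. Of the genes with ACGTG 3 were lower and 3 higher by at least 0.2, and of those without it 3 were lower and 0 higher. The genes higher on replicate 1 thus all held the letters, as did Pfkm, Pfkfb2 and Hk3, which were lower there.

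Ldha and Aldoa had the lowest SDs of the 33 genes. Ldha, the lactate dehydrogenase subunit that favours lactate formation, had log2 values of 12.76, 12.82, 12.79 and 12.80, an SD of 0.03 that only 1.61% of single-symbol probe sets above background undercut. Aldoa, the aldolase of most tissues, had 12.42, 12.46, 12.40 and 12.45, with an SD of 0.03 as well. No array stood out in either gene, and the extremes differed by 1.05-fold and 1.04-fold. Pgk1, which makes the first ATP of the pathway, had 11.56, 11.49, 11.71 and 11.66, and Pgam1, the mutase of the next step, had 11.98, 12.03, 11.91 and 12.08. Eno3, the muscle enolase, had 8.41, 8.48, 8.42 and 8.28. Processed pseudogenes are common for Ldha, Aldoa, Pgk1, Pgam1 and Tpi1, and their part in these signals was not tested.

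Ldha is also the member with the most ACGTG matches, 5 in the window of its upstream start. Of these, 4 are the overlapping strands of 2 CACGTG sites, which lie 145 and 48 bases before the start. The window is on the plus strand of GRCm38.p6, with all matches in capitals.
Ldha, chr7:46845554-46845803: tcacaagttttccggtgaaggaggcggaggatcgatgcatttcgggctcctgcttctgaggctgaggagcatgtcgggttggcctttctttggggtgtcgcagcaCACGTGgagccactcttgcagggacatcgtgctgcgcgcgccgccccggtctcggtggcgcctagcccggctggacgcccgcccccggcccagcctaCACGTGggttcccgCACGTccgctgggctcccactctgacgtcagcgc

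Ldhb, the subunit that favours pyruvate formation, could not be read as firmly, because its probe sets disagreed. The brighter had log2 values of 8.23, 8.40, 7.90 and 8.09, lowest on replicate 3, whereas the other had 7.65, 7.67, 7.87 and 7.06, highest on replicate 3. Both list the same RefSeq transcript. Their mean shifted by 0.03 on replicate 3, against -0.34 for the brighter alone.

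The pentose phosphate genes with a probe set were all above background, and 5 of the 6 had an SD under that of the median single-symbol probe set, 0.11. In the oxidative branch, Pgd, the second NADPH-forming dehydrogenase, had log2 values of 12.37, 12.28, 12.30 and 12.33 (SD 0.04), and Pgls, the lactonase before it, had 9.24, 9.33, 9.34 and 9.10 (SD 0.11). In the non-oxidative branch, Tkt, the thiamine-dependent transketolase, had 10.81, 10.90, 10.90 and 10.90. Replicate 1 stood apart in Tkt, but by only 1.06-fold. Taldo1, the transaldolase, had 10.03, 10.10, 10.06 and 9.98, and Rpe, the ribulose phosphate epimerase, had 10.32, 10.31, 10.18 and 10.23. Rpia, the isomerase that yields ribose 5-phosphate, was the exception of this branch with 10.16, 10.51, 10.05 and 10.18, an SD of 0.20 and a shift of 0.38 on replicate 2. G6pd2, an autosomal copy of G6pdx looked up after its values were seen, had 9.97, 9.88, 10.12 and 10.11, and signal of the near-identical G6pdx cannot be told apart from it.

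At the exits of the pathway, Slc16a1, the monocarboxylate transporter MCT1, had log2 values of 10.64, 10.78, 10.70 and 10.57. Pdha1, the catalytic subunit of pyruvate dehydrogenase, had 10.23, 10.42, 10.27 and 10.33. Neither gene had an array that stood apart, and their SDs were 0.09 and 0.08. Of 11 further genes of pyruvate entry into mitochondria, 9 were above background with a median SD of 0.09. The widest were Dlat, a core subunit of the complex, at 9.40, 9.63, 9.67 and 9.82, Pdp2, a phosphatase that reactivates it, at 8.10, 7.76, 7.93 and 7.83, and Pdhb, the partner of Pdha1, at 8.19, 8.07, 8.33 and 8.33. Dlat shared its lowest array with Pdk1, whereas Pdp2 was highest there. Pdk4 and the testis-specific Pdha2 were not above background.

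Over all 33 genes the median shift was -0.05, 0.03, 0.03 and 0.03 on replicates 1 to 4, against medians of 0.01, 0.00, 0.01 and -0.01 over the single-symbol probe sets above background. Of 11 cell cycle markers all were above background, with a median SD of 0.06, and the 8 housekeeping genes had the same median. Early B-cell markers had a median SD of 0.55 and the erythroid markers one of 0.81. The median SD of granulocyte and monocyte markers was 0.28. Slc2a3 (0.28), Pfkm (0.25) and Pfkfb4 (0.31) had SDs of similar size, but their lowest array was replicate 1. Those markers had their lowest median shift on replicate 2.

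Of 21 other isozymes and transporters with a probe set, 11 were above background, and 7 with the line at the 99th percentile. Slc2a4, the insulin-responsive transporter of muscle and fat, read 6.80, 7.44, 6.89 and 7.37, near the line. Slc2a6, a transporter of leukocytes, had 10.29, 9.86, 10.07 and 9.81, and Adpgk, an ADP-dependent glucokinase, had 9.54, 9.55, 9.97 and 9.85. For gluconeogenesis and glycogen the count was 13 of 17. The liver enzymes G6pc, Pck1 and Gys2 and the muscle enzyme Fbp2 were not above background. The widest genes of that list were Fbp1, a fructose bisphosphatase, at 8.28, 8.34, 8.58 and 7.99, Pygm, the muscle glycogen phosphorylase, at 7.45, 6.85, 7.06 and 6.99, and Pygl, its liver form, at 10.26, 10.20, 10.65 and 10.56. Pygl thus shared with Slc2a3 the lower values on replicates 1 and 2.

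Of 16 genes of branch pathways (hexosamine, serine, glycerol phosphate, malic enzyme and phosphoribosyl pyrophosphate), 15 were above background. Prps1, which makes phosphoribosyl pyrophosphate from the product of the pentose phosphate pathway, had 9.98, 10.25, 10.33 and 10.23. Shmt2, the mitochondrial serine hydroxymethyltransferase, had 10.57, 10.83, 10.86 and 10.90, and Gpd1l, a glycerol phosphate dehydrogenase-like enzyme, had 9.78, 9.60, 9.71 and 9.45. Prps1 and Shmt2 were lowest on replicate 1.

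All 17 regulators of glycolytic genes with a probe set were above background. Txnip, a glucose-induced inhibitor of glucose uptake, had log2 values of 11.88, 11.23, 11.62 and 11.32. Mlxip, a glucose-sensing partner of Mlx, had 11.04, 10.72, 10.65 and 10.59, and Epas1, which encodes HIF-2 alpha, had 7.18, 6.87, 6.79 and 6.91. All of these were highest on replicate 1, although Epas1 lay near the line and failed it at the 99th percentile. They were named for their range over the arrays. On replicate 1, 5 of the 17 were higher and 3 lower by at least 0.2, with backgrounds of 15.8% and 14.0%. By any amount, 10 were higher and 7 lower there.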

How the data were processed

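RNA of 4 sorted pro-B cell samples was hybridized to Affymetrix Mouse Gene 1.0 ST arrays, 1 per sample. The authors processed the scans with RMA, and the deposited table holds log2 intensities of 34760 probe sets. Which arrays were normalized together is not given in the sources used here. Each column name matched 1 sample, with 0 columns left over. Precision is limited by the number of arrays.

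Genes of probe sets came from the platform annotation (21640 with 1 symbol, 1321 with several, 11799 without a listed symbol), and all 38 probe sets of the members kept their symbol in the RefSeq gene table. A gene with several probe sets was given by the one with the highest mean. Named genes were all members and, in each of 6 pathway lists, the 3 genes above background with the largest range. Members, lists and rules were chosen with earlier results of these data known. There was no comparison between groups, so SDs, ranges, shifts and Dixon ratios (critical value 0.829) are descriptions. Marker lists covered 11 groups. Besides those in the report, mast cells and basophils (5 of 7 above background), megakaryocytes and platelets (4 of 4), plasmacytoid dendritic cells (5 of 5) and T and NK cells (6 of 7) were counted. Promoter windows are the 250 bases before each start in the RefSeq table of GRCm38.p6; no probe set coordinates were used.

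Alternatives were other background lines, 3 of 4 arrays, a one-sided limma test of the value over the line, cyclic loess, quantile normalization, centring on the median, no filter or a stricter one, the mean over probe sets and leaving out each replicate. Scripts were tested on simulated data. Calculations used Python 3.11.15 (pandas 2.3.3, numpy 2.4.6), R 4.3.3 (limma 3.58.1) and, for plots, matplotlib 3.10.9.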

Additional observations from a re-analysis of the deposited data

Results flagged for a closer look

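Of 53 genes named by rule, 3 had 1 array far from the others by Dixon's ratio, where chance gives about 1 in 20, or 2.65 genes. Among single-symbol probe sets above background the share was 5.35%. Pfkm was lower on replicate 1 at 8.17, against a mean log2 value of 8.67 on the other arrays. Tkt was lower on replicate 1 at 10.81, against 10.90. Aldoc was lower on replicate 2 at 7.21, against 7.29, close to the background line. Pklr, although its change was larger, was not among them because replicates 2 to 4 also differed from each other (ratio 0.789).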

How the results depend on the processing

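No paired analysis was possible because there is only 1 group. The number of members above background was 31 to 34 under the alternatives and 33 without each replicate. Their median SD was 0.072 to 0.11 with each replicate left out in turn. The number of genes with a 2-fold range was then 0 to 1, the 0 arising without replicate 1. Of other isozymes and transporters, 7 in place of 11 passed with the line at the 99th percentile and 7 when the line was the array median. Lines changed the following mean margins. With the 99th percentile they were -0.28 for Pgam2, -0.083 for Slc2a4, -0.12 for Pygm and -0.27 for Epas1. With the array median they were -0.062 for Aldoc, -0.40 for Pgam2, -0.20 for Slc2a4, -0.039 for Bpgm, -0.24 for Pygm and -0.39 for Epas1. Eno2 passed with the 90th percentile (0.21) and with vomeronasal and taste receptors alone (0.18). The T and NK cell count fell from 6 to 2 with the 99th percentile and to 1 with the array median, and that of male germ cell markers from 2 to 0 with both. These changes follow from moving the line. The shift of Hk1 on replicate 2 was 0.15 with the probe set that lists a RefSeq transcript, an alternative added after the data were seen. That of Aldoa on replicate 4 was -0.00979 with quantile normalization, and that of Ldhb on replicate 3 was 0.032 with the mean over its probe sets. The cause of the Aldoa change was not tested. Members near the line and differences under about 0.1 are the least certain with 4 arrays.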
